A study of Mus musculus with 12 samples.

Results

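The response to ischemia-reperfusion (I/R) of mouse kidneys labelled as ALR knockouts (PT-KO) was described from 6 of the 12 RNA-seq libraries of the study, by setting the 3 I/R libraries of the knockout (PT-KO+I/R 2, 3 and 4) against the 3 sham libraries of the same genotype (PT-KO 1, 2 and 4). PT-KO mice carry floxed Gfer alleles, the gene of ALR, together with a Cre under the Ggt1 promoter, which is active in the proximal tubule, and by the labels both groups compared here share that genotype. Each library was made from kidney cortex by the labels, which call the genotype an ALR knockdown. Both renal pedicles were clamped for 22 min and the kidneys were reperfused for 24 h, while the other group had sham surgery. The study also has 3 libraries each of floxed mice without Cre after sham surgery (Ctrl) and after I/R (Ctrl+I/R), which enter only the comparison of responses at the end. By the study's methods the mice were 6 to 8 weeks old and on a mixed C57BL/6 background.

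ALR is a sulfhydryl oxidase of the mitochondrial intermembrane space that reoxidizes CHCHD4, the receptor that folds imported proteins through disulfide bonds. The proximal tubule depends on mitochondrial fatty acid oxidation and is the segment of the kidney most exposed to ischemic damage. Injured tubule cells are known to switch on a set of injury genes, to lose transporters, and to enter a repair programme in which some cells divide.

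The libraries held between 12165089 and 23123693 counts each. Replicates differed by more than counting error on average, with a mean chi-square per degree of freedom of 10 to 21.6 between pairs of libraries, over genes averaging 10 counts or more. The first principal component held 87.7% of the variance and separated PT-KO from PT-KO+I/R, and PT-KO+I/R 2 stood apart from the other I/R libraries on the second (5.31%). All 6 libraries were from males by their sex-linked transcripts. All transcripts of mitochondrial DNA together, rRNAs and tRNAs included, took 13.35 to 14.35% of the counts in PT-KO and 13.59 to 16.11% in PT-KO+I/R. Levels are given as CPM on TMM-scaled library sizes, which are not corrected for transcript length, and 3 values in a row are those of libraries 1, 2 and 4 in PT-KO and 2, 3 and 4 in PT-KO+I/R. In bulk tissue, fewer cells of a type and less RNA per cell cannot be told apart.

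Gfer, the targeted gene (chr17:24693187-24696156, minus strand), was measured at 9.47, 16.1 and 14.3 in PT-KO and 20.3, 21.5 and 20.4 CPM in PT-KO+I/R. All 3 I/R libraries were above all 3 sham libraries (log2 fold change 0.64, SE 0.18, adjusted p = 0.00888). These whole-gene counts include cells in which the Cre is not active, exons outside the floxed part and, where the protocol did not keep the strand, reads of the neighbouring gene Noxo1, so that they are no check of the deletion. On the scale of all 12 libraries Gfer was at 12.7, 11.4 and 14.4 CPM in Ctrl, 9.97, 17.1 and 15 in PT-KO, 15.3, 20 and 17.6 in Ctrl+I/R and 21.6, 22.8 and 21.6 in PT-KO+I/R. The levels of PT-KO overlapped those of Ctrl and the levels of PT-KO+I/R lay above those of Ctrl+I/R, so that these counts show no loss of Gfer, and the genotype is taken from the labels.

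I/R moved most of the measured transcriptome of PT-KO kidneys. Of 15155 genes tested with the quasi-likelihood test of edgeR, 9929 (65.5%) were called at an adjusted p under 0.05, 4980 (32.9%) as rises after I/R and 4949 (32.7%) as falls. With a log2 fold change beyond 1 in addition, 1980 genes (13.1%) were higher and 2653 (17.5%) lower. The libraries of both groups did not overlap in 71.0% of all tested genes and in 98.0% of the called ones. Because the background is this large, the share of a gene list that was called is read below against 32.9% higher and 32.7% lower. Genes that rose beyond log2 1 took 4.63 to 5.01% of the counts in PT-KO and 18.4 to 20.0% in PT-KO+I/R, while genes that fell beyond it took 23.2 to 24.2% and 6.53 to 7.34%.

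Genes of the tubular injury list led the rises. Krt20, a keratin of stressed epithelia (chr11:99428403-99438150, minus strand), was at 0.3, 0.0506 and 0 in PT-KO and 925, 835 and 1213 CPM in PT-KO+I/R (log2 fold change 13.02, SE 0.36, adjusted p = 2.11e-08). Havcr1, which encodes the injury marker KIM-1 (chr11:46735080-46779578, plus strand), was at 1.62, 1.06 and 1.05 in PT-KO and 2123, 3702 and 3052 CPM in PT-KO+I/R (log2 fold change 11.22, SE 0.30, adjusted p = 2.11e-08). Krt20 had at most 5 counts in a sham library and Havcr1 at most 27, and both were high in every I/R library. With 1 library left out, the log2 fold change of Krt20 ranged from 12.49 to 14.82. Lcn2, the iron-siderophore binding protein NGAL, was at 1.98, 0.708 and 1.51 in PT-KO and 1456, 1205 and 1701 CPM in PT-KO+I/R (log2 fold change 10.04, SE 0.29, adjusted p = 2.32e-08). Sult1e1, an estrogen sulfotransferase, and Fosl1, an AP-1 subunit, had no count in any PT-KO library and were at least 220-fold and 204-fold higher in PT-KO+I/R, against a floor of 3 counts per library. Timp1, an inhibitor of matrix metalloproteinases, had 1, 0 and 0 in PT-KO and 241, 472 and 350.0 counts in PT-KO+I/R, a ratio of 1081 (95% counting interval 194 to 42742). Sprr2f, a cornified envelope protein with near-identical copies among which reads may be split, had 0, 2 and 0 in PT-KO and 394, 398 and 408 counts in PT-KO+I/R, a ratio of 610 (95% counting interval 169 to 5045). Counting intervals and floors cover counting error only. The fibrinogen chains Fgb and Fgg rose by 9.65 and 8.45 on the log2 scale, and Lgi2 by 8.40.

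**Figure D1:**
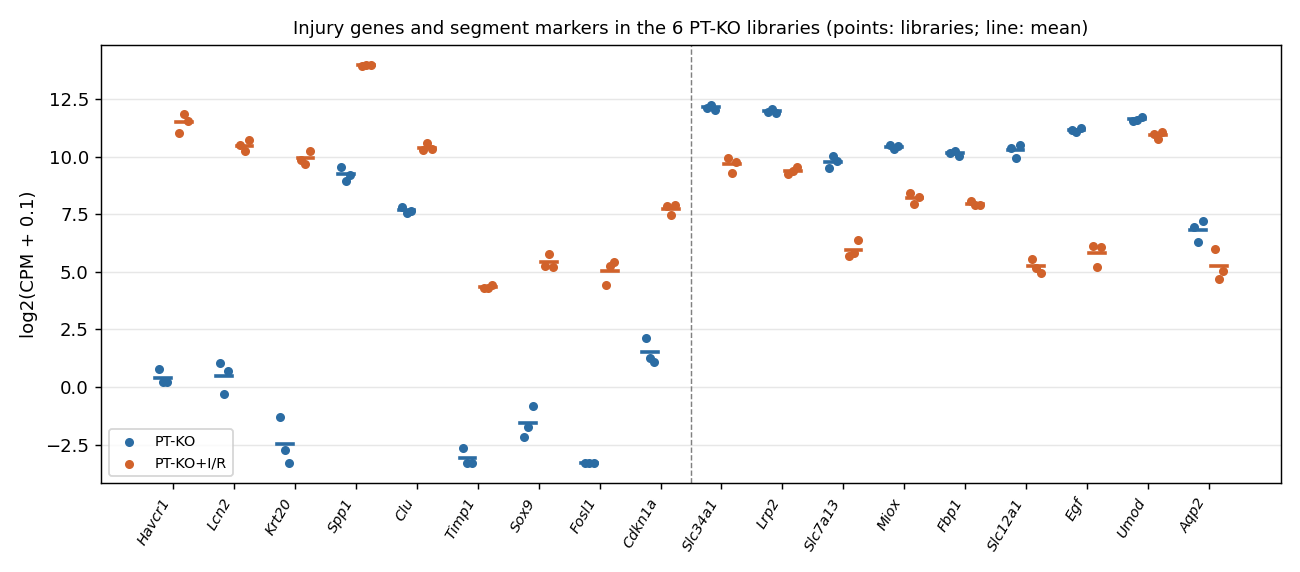
Levels of 18 genes as log2(CPM + 0.1) in the 3 PT-KO libraries (blue) and the 3 PT-KO+I/R libraries (orange), each point a library and each line a group mean. Left of the dashed line stand genes of injury and arrest, which are higher in each I/R library than in any sham library, and right of it markers of nephron segments, which are lower.

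All 30 of 30 genes of the tubular injury list were called higher, with a median log2 fold change of 4.46, against 0.01 over all genes tested. Of these, 6 had under 10 counts in at least 1 sham library, and over the other 24 the median was 4.12. Genes low in all sham libraries, such as Krt20 and Timp1, passed the count filter only through the I/R libraries and had to differ. Spp1, which encodes the secreted phosphoprotein osteopontin, had the largest gain in mean CPM of the called genes and was at 748, 495 and 600 in PT-KO and 16005, 16475 and 16121 CPM in PT-KO+I/R. Clu, an extracellular chaperone, was at 226, 191 and 200 in PT-KO and 1243, 1542 and 1287 CPM in PT-KO+I/R (log2 fold change 2.72, SE 0.12, adjusted p = 8.53e-08). Sox9, a transcription factor of regenerating tubule cells, was at 0.12, 0.202 and 0.466 in PT-KO and 38.2, 54.1 and 37.5 CPM in PT-KO+I/R (log2 fold change 7.34, SE 0.30, adjusted p = 6.23e-08). Each of these 3 genes separated the groups without overlap. The smallest rise in the list was in Vcam1, an adhesion molecule, at 7.91, 6.32 and 8.04 in PT-KO and 8.59, 11.3 and 11.3 CPM in PT-KO+I/R (log2 fold change 0.49, SE 0.17, adjusted p = 0.0275), which was not called without PT-KO 2 (log2 0.39), PT-KO+I/R 3 (log2 0.44) or PT-KO+I/R 4 (log2 0.44). The immediate early and AP-1 list had all 18 of 18 genes called higher, with a median of 3.02, or 2.17 over those with at least 10 counts in every library. Among these, Atf3 was at 1.74, 1.16 and 0.815 in PT-KO and 10.1, 26.8 and 15.6 CPM in PT-KO+I/R (log2 fold change 3.83, SE 0.39, adjusted p = 1.73e-05). Myc was at 4.8, 2.48 and 3.38 in PT-KO and 34.6, 56.8 and 75.9 CPM in PT-KO+I/R (log2 fold change 3.99, SE 0.31, adjusted p = 2.75e-06).

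The transcripts of the nephron's own work fell together. All 41 of 41 genes of the proximal tubule list were called lower, with a median of -1.94. Slc34a1, the sodium-phosphate cotransporter of the brush border, was at 4507, 4931 and 4249 in PT-KO and 989, 634 and 881 CPM in PT-KO+I/R, 5.47 times lower in PT-KO+I/R (log2 fold change -2.45, SE 0.16, adjusted p = 8.96e-07). Lrp2, the endocytic receptor megalin, was at 3978, 4354 and 3798 in PT-KO and 608, 673 and 743 CPM in PT-KO+I/R, 5.99 times lower. These levels in the sham libraries are those of a tissue rich in proximal tubule, as the cortex label has it. Slc7a13, an amino acid transporter of the late proximal tubule, fell by 13.9 times (log2 fold change -3.79, SE 0.20, adjusted p = 2.27e-07), while Hnf4a, a transcription factor that maintains the segment, fell by 1.97 times (log2 fold change -0.98, SE 0.13, adjusted p = 0.000105). Ggt1, whose promoter drives the Cre, was at 914, 1217 and 937 in PT-KO and 496, 500 and 482 CPM in PT-KO+I/R (log2 fold change -1.05, SE 0.12, adjusted p = 3.58e-05). The glucose transporter Slc5a2, the anion transporter Slc22a6 and the inositol oxygenase Miox had log2 fold changes of -0.99, -1.36 and -2.22.

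Markers of other nephron segments fell too. In the list of the thick ascending limb and distal tubule, 16 of 17 genes were called lower and 1, Trpm6, higher, with a median of -1.79. Slc12a1, the sodium-potassium-chloride cotransporter of the thick ascending limb, was at 1344, 988 and 1456 in PT-KO and 47.5, 36.3 and 30.9 CPM in PT-KO+I/R, 33.1 times lower (log2 fold change -5.05, SE 0.21, adjusted p = 6.19e-08). Egf, made by the same segments, was at 2309, 2188 and 2423 in PT-KO and 69.7, 37.4 and 68.5 CPM in PT-KO+I/R, 39.6 times lower (log2 fold change -5.31, SE 0.24, adjusted p = 8.55e-08). Umod, the thick limb's uromodulin, moved far less, at 2991, 3139.8 and 3439 in PT-KO and 2011, 1761 and 2189.6 CPM in PT-KO+I/R (log2 fold change -0.68, SE 0.11, adjusted p = 0.000411). The collecting duct list had 14 of 17 genes lower and 0 higher, with a median of -1.04. Aqp2, its water channel, was at 125, 78.1 and 148 in PT-KO and 64.2, 26 and 33.2 CPM in PT-KO+I/R (log2 fold change -1.53, SE 0.32, adjusted p = 0.00187). Of 12 podocyte genes, 6 were lower and 1, Kirrel, higher: the slit diaphragm gene Nphs1 fell by 2.88 times (log2 fold change -1.52, SE 0.15, adjusted p = 1.34e-05). Of the 14 endothelial genes 6 were higher (42.9%) and 5 lower (35.7%), near the shares over all genes. Pecam1 had a log2 fold change of 0.57. Kdr was at 81.8, 94.1 and 101 in PT-KO and 93.1, 88.6 and 92.4 CPM in PT-KO+I/R (log2 fold change -0.02, 95% interval -0.22 to 0.19, adjusted p = 0.892). Trpm6 and Kirrel were chosen for naming after their values had been seen.

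The largest falls of single genes were in A4gnt, a glycosyltransferase, at 17.8, 17 and 15 in PT-KO and 0, 0.0419 and 0.183 CPM in PT-KO+I/R (log2 fold change -7.65, SE 0.37, adjusted p = 1.26e-07), and in Slc4a1, the anion exchanger of intercalated cells and red cells, at 44.4, 33.9 and 48.6 in PT-KO and 0.0803, 0.335 and 0.244 CPM in PT-KO+I/R (log2 fold change -7.39, SE 0.27, adjusted p = 4.42e-08). Tmem207, Prok1, Clec2h, Hsd3b2, Nat8f6, Keg1, Gys2 and Nccrp1 completed the 10 largest falls, with log2 fold changes of -7.39, -6.99, -6.55, -6.45, -6.26, -6.09, -5.79 and -5.73 in that order. With 1 library left out, A4gnt ranged from -8.91 to -7.22 and Nccrp1 from -7.14 to -4.91. Keg1, an acyltransferase-like gene of the kidney, was also among the 6 genes with the largest loss in mean CPM, at 2664, 3278 and 2377 in PT-KO and 53, 39.3 and 30.5 CPM in PT-KO+I/R. The largest loss was of Kap, an androgen-regulated protein of the proximal tubule, at 19930.0, 27475 and 20613 in PT-KO and 13152, 14262 and 14841 CPM in PT-KO+I/R (log2 fold change -0.69, SE 0.14, adjusted p = 0.0016). Kap was not called in the edgeR fit to all 12 libraries (log2 -0.68, adjusted p = 0.0979). The acyl-CoA synthetase Acsm2 was at 5877, 7337 and 5939.8 in PT-KO and 2959, 2671 and 2694 CPM in PT-KO+I/R. None of these genes had groups that overlapped, which held for 98.0% of all called genes. A4gnt, Slc4a1, Tmem207 and Prok1 had at most 8 counts in any I/R library. They passed the count filter only through the sham libraries and had to differ.

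Metabolic genes divided by pathway. In the gluconeogenesis and fructose list, 13 of 14 genes were lower and 1, Got1 (chosen after its value had been seen), higher, with a median of -2.11. Fbp1, fructose-bisphosphatase, was at 1157, 1235 and 1055 in PT-KO and 267, 242 and 239 CPM in PT-KO+I/R (log2 fold change -2.20, SE 0.10, adjusted p = 1.03e-07). G6pc, which releases free glucose, was at 407, 539 and 656 in PT-KO and 192, 76.1 and 86.2 CPM in PT-KO+I/R (log2 fold change -2.18, SE 0.32, adjusted p = 0.000208). Pck1, the first committed enzyme, was at 4189, 3308 and 2883 in PT-KO and 3214, 1991 and 1540.0 CPM in PT-KO+I/R, with groups that overlapped (log2 fold change -0.62, SE 0.24, adjusted p = 0.044), and was not called without PT-KO 1 (log2 -0.47), PT-KO 2 (log2 -0.65), PT-KO+I/R 3 (log2 -0.53) or PT-KO+I/R 4 (log2 -0.40). The glycolysis and glucose uptake list had 12 of 22 genes higher and 6 lower. In that list Hk2, a hexokinase, was at 1.32, 1.06 and 0.815 in PT-KO and 6.02, 15.2 and 12 CPM in PT-KO+I/R (log2 fold change 3.39, SE 0.36, adjusted p = 2.21e-05). Slc2a1, the GLUT1 transporter, was at 38.2, 31.5 and 37.9 in PT-KO and 126, 205 and 221 CPM in PT-KO+I/R (log2 fold change 2.36, SE 0.19, adjusted p = 3.79e-06), while Pkm and Pfkp had log2 fold changes of 0.85 and 0.57.

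Genes of fatty acid oxidation were more often lower than higher. Of 23 genes of the mitochondrial pathway, 14 were lower and 5 higher, with a median of -0.40. Acadm, the medium-chain dehydrogenase, was at 1316, 1333 and 1123 in PT-KO and 346, 381 and 368 CPM in PT-KO+I/R (log2 fold change -1.78, SE 0.10, adjusted p = 3.72e-07). Cpt1a, which loads fatty acids for import, was at 654, 686 and 632 in PT-KO and 987, 919 and 923 CPM in PT-KO+I/R (log2 fold change 0.52, SE 0.09, adjusted p = 0.000506). Hadha, of the trifunctional protein, was at 272, 245 and 251 in PT-KO and 245, 249 and 240 CPM in PT-KO+I/R (log2 fold change -0.07, 95% interval -0.25 to 0.12, adjusted p = 0.498). The peroxisomal list had 7 of 20 genes higher and 11 lower, with Ehhadh, its bifunctional enzyme, among the higher at log2 1.35. Among targets of PPARA, the lipid-sensing nuclear receptor, 17 of 26 were higher and 4 lower, with a median of 1.20. Over the targets with at least 10 counts in every library the median was 0.50, since low genes could pass the filter through the I/R libraries alone. Plin2, the coat protein of lipid droplets, was at 84.9, 85.4 and 59.9 in PT-KO and 4004, 4842 and 4684 CPM in PT-KO+I/R, 58.7 times higher (log2 fold change 5.88, SE 0.18, adjusted p = 2.41e-08). Pdk4, which shuts off pyruvate dehydrogenase, was at 30.8, 18.7 and 23.1 in PT-KO and 1158, 1190.0 and 1478 CPM in PT-KO+I/R (log2 fold change 5.72, SE 0.20, adjusted p = 3.8e-08). Both genes were higher in each I/R library than in any sham library. Ppara itself was at 88.8, 96.2 and 105 in PT-KO and 98, 86.1 and 120 CPM in PT-KO+I/R (log2 fold change 0.07, 95% interval -0.21 to 0.35, adjusted p = 0.656). Its target Cyp4a10 was at 303, 175 and 311 in PT-KO and 365, 320 and 276 CPM in PT-KO+I/R (log2 fold change 0.29, 95% interval -0.16 to 0.73, adjusted p = 0.228). The groups overlapped for both Ppara and Cyp4a10. The coactivator Ppargc1a was at 109, 92.2 and 110 in PT-KO and 37, 31.6 and 35.3 CPM in PT-KO+I/R, 3 times lower.

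Nuclear genes of mitochondrial respiration were lower by small steps. Of 43 nuclear respiratory chain subunits, 37 were called lower and 0 higher, with a median of -0.52. Uqcrc1, of complex III, was at 356, 400 and 361 in PT-KO and 261, 259 and 259 CPM in PT-KO+I/R (log2 fold change -0.52, SE 0.09, adjusted p = 0.000418). Cox4i1, of complex IV, was at 605, 665 and 581 in PT-KO and 515, 511 and 523 CPM in PT-KO+I/R (log2 fold change -0.26, SE 0.09, adjusted p = 0.0278), a call that was lost without PT-KO 1 (log2 -0.28), PT-KO 2 (log2 -0.20), PT-KO+I/R 3 (log2 -0.24) or PT-KO+I/R 4 (log2 -0.26). In the tricarboxylic acid cycle list 16 of 18 genes were lower and 1, Fh1 (chosen after its value had been seen), higher, with Ogdh 2.6 times lower and Cs, citrate synthase, at 299, 284 and 277 in PT-KO and 276, 255 and 277 CPM in PT-KO+I/R (log2 fold change -0.09, 95% interval -0.28 to 0.10, adjusted p = 0.362). Of the 13 mRNAs encoded by mitochondrial DNA, 1 was called, mt-Nd1, at 15902, 16821 and 17085 in PT-KO and 20708, 20069 and 24034 CPM in PT-KO+I/R (log2 fold change 0.38, SE 0.11, adjusted p = 0.0122). The level of mt-Co1 was 48989, 50739 and 50198 in PT-KO and 47526, 46125 and 56139 CPM in PT-KO+I/R (log2 fold change -0.00, 95% interval -0.26 to 0.26, adjusted p = 0.993). The count of 1 became 2 without PT-KO 2, 3 without PT-KO+I/R 2 and 2 without PT-KO+I/R 4, and it was 4 without the count filter and 2 with total counts, while in the edgeR fit to all 12 libraries mt-Nd1 was not called either. In the list of ALR and its disulfide relay, 12 of 24 genes were lower and 2, Gfer and Timm10 (the latter chosen after its value had been seen), higher. Chchd4, the oxidase's partner, was at 37.3, 40.5 and 38.6 in PT-KO and 43.4, 42.2 and 38.4 CPM in PT-KO+I/R (log2 fold change 0.09, 95% interval -0.11 to 0.29, adjusted p = 0.392).

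**Figure D2:**
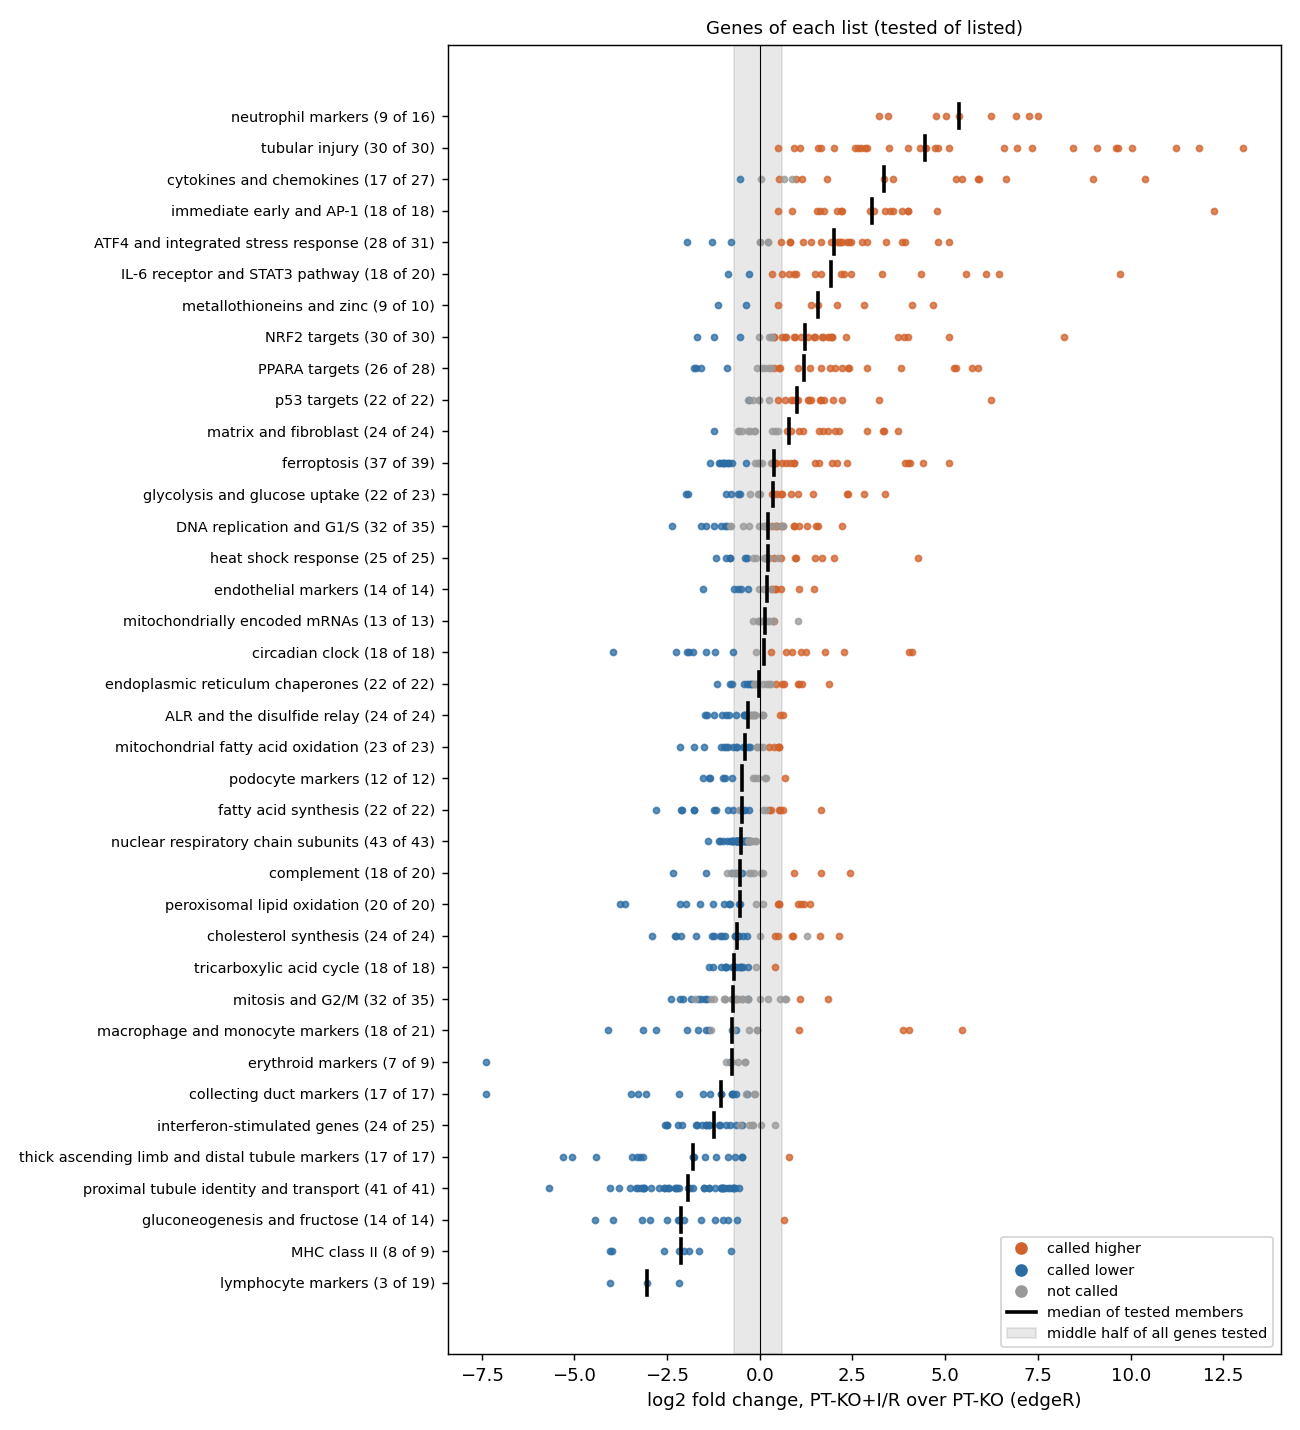
Log2 fold change of each tested gene of 38 gene lists in PT-KO+I/R over PT-KO, 1 row a list, with genes called higher in orange, called lower in blue and not called in grey. Black bars are list medians and the grey band holds all tested genes between the 25th and 75th percentile (-0.68 to 0.59). Neutrophil, tubular injury and cytokine genes lie at the top, and lymphocyte, MHC class II, gluconeogenesis and tubule segment genes at the bottom. Low members of the neutrophil, cytokine, lymphocyte and MHC class II lists passed the count filter through the group where they are high. With at least 10 counts in every library the cytokine median was 0.94.

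Stress pathways differed in how far they moved. In the NRF2 list, the oxidative stress regulon, 23 of 30 genes were higher and 3 lower, with a median of 1.21. Over its members with at least 10 counts in every library the median was 0.9. Hmox1, which breaks down heme, was at 20.4, 26.5 and 23 in PT-KO and 306, 575 and 246 CPM in PT-KO+I/R (log2 fold change 4.01, SE 0.30, adjusted p = 1.9e-06). Srxn1, sulfiredoxin, was at 49.7, 54.2 and 52.9 in PT-KO and 622, 679 and 797 CPM in PT-KO+I/R (log2 fold change 3.74, SE 0.12, adjusted p = 2.66e-08). Nqo1, a quinone reductase, was at 38.7, 54.2 and 53.6 in PT-KO and 160, 203 and 204 CPM in PT-KO+I/R (log2 fold change 1.95, SE 0.15, adjusted p = 2.06e-06). The groups did not overlap for these 3 genes. Gclm, a subunit of the first enzyme of glutathione synthesis, rose least of the named targets, at 360.0, 382 and 363 in PT-KO and 385, 587 and 467 CPM in PT-KO+I/R (log2 fold change 0.38, SE 0.14, adjusted p = 0.0342), and was not called without PT-KO 1 (log2 0.36), PT-KO 2 (log2 0.41), PT-KO 4 (log2 0.37), PT-KO+I/R 3 (log2 0.22) or PT-KO+I/R 4 (log2 0.41). In the ATF4 and integrated stress response list, 21 of 28 genes were higher and 3 lower, with a median of 2.00. Over its members with at least 10 counts in every library the median was 1.76. Asns, asparagine synthetase, was at 3.54, 5.77 and 3.38 in PT-KO and 45.4, 48.7 and 41.1 CPM in PT-KO+I/R (log2 fold change 3.40, SE 0.19, adjusted p = 3.04e-07). The secreted factor Gdf15 was at 3.6, 4.6 and 4.08 in PT-KO and 78.9, 138 and 129 CPM in PT-KO+I/R (log2 fold change 4.81, SE 0.23, adjusted p = 1.17e-07). Trib3 rose by 2.76 on the log2 scale, while Ddit3, which encodes CHOP, was at 4.08, 4.3 and 5.59 in PT-KO and 5.62, 5.49 and 5.24 CPM in PT-KO+I/R (log2 fold change 0.23, 95% interval -0.21 to 0.66, adjusted p = 0.325).

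Of 22 chaperone genes of the endoplasmic reticulum 7 were higher (31.8%) and 8 lower (36.4%), near the shares over all genes. Hspa5 was at 349, 394 and 382 in PT-KO and 569, 577 and 559 CPM in PT-KO+I/R (log2 fold change 0.60, SE 0.09, adjusted p = 0.000187). Xbp1 was at 105, 105 and 101 in PT-KO and 316, 452 and 374 CPM in PT-KO+I/R (log2 fold change 1.87, SE 0.13, adjusted p = 1.03e-06). In the heat shock list 9 of 25 genes were higher (36.0%, near the share over all genes) and 6 lower (24.0%), with a median of 0.22. Hspb1, a small heat shock protein, was at 3.24, 2.23 and 2.85 in PT-KO and 51.9, 49.9 and 57.5 CPM in PT-KO+I/R, 19.2 times higher (log2 fold change 4.26, SE 0.15, adjusted p = 3.59e-08), and Dnajb1 had a log2 fold change of 0.39. Hspa1a and Hspa1b, near-identical copies among which reads may be split, were not called. Hspa1a was at 9.35, 4.86 and 9.32 in PT-KO and 16.4, 8.76 and 8.35 CPM in PT-KO+I/R (log2 fold change 0.50, 95% interval -0.20 to 1.19, adjusted p = 0.182). Hspa1b was at 18.8, 9.46 and 16.8 in PT-KO and 19.4, 16.4 and 14.8 CPM in PT-KO+I/R (log2 fold change 0.17, 95% interval -0.34 to 0.68, adjusted p = 0.529). In the metallothionein and zinc list 7 of 9 genes were higher and 2 lower. Mt1, a metal-binding protein, was at 60.3, 57.7 and 55.9 in PT-KO and 799, 1008 and 1190.5 CPM in PT-KO+I/R (log2 fold change 4.11, SE 0.15, adjusted p = 4.42e-08). Mt2 was at 37.8, 37.9 and 35.4 in PT-KO and 719, 878 and 1217 CPM in PT-KO+I/R (log2 fold change 4.66, SE 0.19, adjusted p = 6.48e-08).

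Genes of ferroptosis, the iron-dependent death by lipid peroxidation, were called higher in 21 and lower in 11 of 37, with a median of 0.38. Acsl4, which esterifies the polyunsaturated fatty acids that peroxidize, was at 68.9, 59.6 and 74.4 in PT-KO and 364, 345 and 331 CPM in PT-KO+I/R, 5.12 times higher (log2 fold change 2.36, SE 0.10, adjusted p = 8.53e-08). Slc7a11, the cystine importer, was at 0.24, 0.304 and 0.524 in PT-KO and 3.69, 20.6 and 12.1 CPM in PT-KO+I/R, lowest among the I/R libraries in PT-KO+I/R 2 (log2 fold change 5.09, SE 0.65, adjusted p = 7.74e-05). Fth1, the ferritin heavy chain, had the largest gain in mean CPM after Spp1, at 2782, 3454 and 2834 in PT-KO and 10587, 12552 and 11569 CPM in PT-KO+I/R. Gpx4, the peroxidase that reduces lipid hydroperoxides, was at 282, 373 and 299 in PT-KO and 267, 308 and 290 CPM in PT-KO+I/R, with groups that overlapped (log2 fold change -0.14, 95% interval -0.41 to 0.12, adjusted p = 0.31). Acsl4, Slc7a11 and Fth1 separated the groups, as did 71.0% of all tested genes, and Gpx4 did not. Slc7a11 was low in all sham libraries, passed the count filter only through the I/R libraries and had to differ. Tfrc, the transferrin receptor, was at 88.4, 120 and 117 in PT-KO and 146, 120 and 137 CPM in PT-KO+I/R (log2 fold change 0.31, 95% interval 0.03 to 0.59, adjusted p = 0.0526) and was called without PT-KO 2 (log2 0.39) or PT-KO+I/R 3 (log2 0.39).

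Cell cycle genes did not move as 1 group. Cdkn1a, the p53 target that encodes the inhibitor p21, was at 4.26, 2.33 and 2.04 in PT-KO and 231, 176 and 242 CPM in PT-KO+I/R, 75.7 times higher (log2 fold change 6.24, SE 0.24, adjusted p = 4.42e-08). In the p53 target list, 16 of 22 genes were higher and 1 lower, with Mdm2 at 48, 41.8 and 43.7 in PT-KO and 69.3, 80.7 and 89 CPM in PT-KO+I/R (log2 fold change 0.84, SE 0.11, adjusted p = 7.22e-05). In the DNA replication and G1/S list, 12 of 32 genes were higher (37.5%, near the share over all genes) and 7 lower (21.9%). The median was 0.22. Pcna, the sliding clamp, was at 32.1, 32.4 and 31.6 in PT-KO and 60.2, 58 and 61.8 CPM in PT-KO+I/R (log2 fold change 0.91, SE 0.08, adjusted p = 5.6e-06), and Rrm2 rose by 1.06 on the log2 scale. Ccnd1, cyclin D1, was at 263, 225 and 276 in PT-KO and 105, 124 and 138 CPM in PT-KO+I/R (log2 fold change -1.05, SE 0.12, adjusted p = 3.55e-05). Mcm2, of the replicative helicase, was at 14.7, 15.1 and 13.7 in PT-KO and 17.9, 18.1 and 18.2 CPM in PT-KO+I/R (log2 fold change 0.32, SE 0.11, adjusted p = 0.026), and was not called without PT-KO 1 (log2 0.32), PT-KO 4 (log2 0.27), PT-KO+I/R 3 (log2 0.32) or PT-KO+I/R 4 (log2 0.32).

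In the mitosis and G2/M list, 9 of 32 tested genes (of 35) were called lower (28.1%, near the share over all genes) and 2, Anln and Kif23 (chosen after their values had been seen), higher (6.25%), with a median of -0.71. Mki67, the proliferation antigen Ki-67, was at 17.7, 10.2 and 7.4 in PT-KO and 3.61, 2.05 and 2.38 CPM in PT-KO+I/R (log2 fold change -2.16, SE 0.34, adjusted p = 0.00031). Top2a, the topoisomerase of dividing cells, was at 11.1, 5.11 and 4.43 in PT-KO and 2.89, 1.59 and 1.34 CPM in PT-KO+I/R (log2 fold change -1.86, SE 0.41, adjusted p = 0.00256). PT-KO 1 was the highest library for both genes. Cdk1 was at 3.24, 2.07 and 1.28 in PT-KO and 3.77, 2.85 and 2.99 CPM in PT-KO+I/R (log2 fold change 0.54, 95% interval -0.21 to 1.28, adjusted p = 0.18) and was called higher without PT-KO 1 (log2 0.91). Ccnb1, cyclin B1, was at 2.58, 1.01 and 0.641 in PT-KO and 1.53, 0.545 and 1.4 CPM in PT-KO+I/R (log2 fold change -0.33, 95% interval -1.58 to 0.92, adjusted p = 0.624). These are low levels, and the list's values moved with single libraries. Without PT-KO+I/R 2, 19 genes were called and the median was -1.23, while without PT-KO 1, 10 were called and the median was -0.33.

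**Figure D3:**
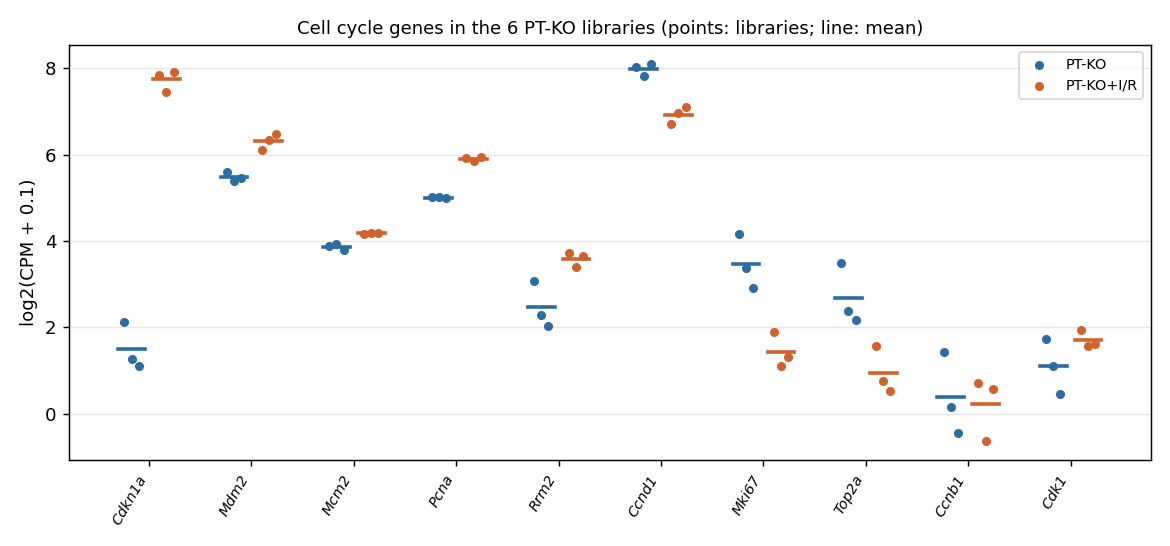
Levels of 10 cell cycle genes as log2(CPM + 0.1) in the 3 PT-KO libraries (blue) and the 3 PT-KO+I/R libraries (orange), each point a library and each line a group mean. Cdkn1a is higher and Mki67 and Top2a are lower in all I/R libraries, while the groups overlap for Ccnb1 and Cdk1.

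Promoters of mitotic, heat shock and NRF2 genes are shown because named members differed in their calls or size of change, and in holding the list's element. The element CHR (TTTGAA, read on both strands) was in the promoters of 23 of the 29 mitosis and G2/M genes with an entry in RefSeq (79.3%), against 20.2% of all 27018 genes with one, in the window from 250 bases before to 50 after the start. CCAAT was in 79.3% of the list and 41.1% of all genes. The heat shock element core (GAANNTTC) was in 12 of 19 genes (63.2%, against 9.04%), and the antioxidant response element (TGACNNNGC) in 9 of 24 NRF2 targets (37.5%, against 14.0%). A match is a description of the letters and not a site of binding. The 150 bases before the start are printed 5′ to 3′ along the gene, from RefSeq on GRCm38.p6, with the element in capitals. They lie at chr7:135716380-135716529 on the minus strand for Mki67, chr11:99024190-99024339 on the minus strand for Top2a, chr10:69352913-69353062 on the minus strand for Cdk1, chr5:135887769-135887918 on the plus strand for Hspb1, chr17:34972157-34972306 on the minus strand for Hspa1a and chr3:122245407-122245556 on the plus strand for Gclm.
Mki67: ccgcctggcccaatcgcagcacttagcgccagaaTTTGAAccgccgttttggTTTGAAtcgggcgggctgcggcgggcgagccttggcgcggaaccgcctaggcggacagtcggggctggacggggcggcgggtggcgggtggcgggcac
Top2a: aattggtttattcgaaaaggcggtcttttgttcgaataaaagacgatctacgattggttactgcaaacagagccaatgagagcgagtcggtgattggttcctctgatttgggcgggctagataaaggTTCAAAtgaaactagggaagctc
Cdk1: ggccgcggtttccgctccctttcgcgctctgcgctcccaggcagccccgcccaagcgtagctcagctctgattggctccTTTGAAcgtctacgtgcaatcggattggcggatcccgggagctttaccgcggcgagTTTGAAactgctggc
Hspb1: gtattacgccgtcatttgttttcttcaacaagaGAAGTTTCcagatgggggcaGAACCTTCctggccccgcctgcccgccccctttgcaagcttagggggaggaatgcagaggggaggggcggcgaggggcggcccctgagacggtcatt
Hspa1a: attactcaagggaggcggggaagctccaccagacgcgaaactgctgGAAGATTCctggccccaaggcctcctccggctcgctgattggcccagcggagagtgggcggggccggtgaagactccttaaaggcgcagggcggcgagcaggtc
Gclm: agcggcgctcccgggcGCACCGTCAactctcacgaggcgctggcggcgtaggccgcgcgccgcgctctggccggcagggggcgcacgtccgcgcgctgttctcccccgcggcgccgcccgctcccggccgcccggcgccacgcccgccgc

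Mki67 holds CHR 116 and 98 bases before the start, Cdk1 71 and 15 bases before it, and Top2a 23 bases before it on the other strand and, outside the printed stretch, 179 bases before it. Ccnb1, which was not called, has no CHR in the 250 bases before its start. Of these, Mki67 and Top2a were called lower and Cdk1 was not called. Hspb1 holds the heat shock core 117 and 97 bases before the start and rose, while Hspa1a, which was not called, holds it 104 bases before the start. Dnajb1 has none in the same stretch of either of its entries. The element in Gclm lies 134 bases before the start on the other strand, while Nqo1 and Srxn1, which rose more than Gclm, have none in the 250 bases.

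Inflammatory signals of the tissue rose. Of 27 cytokines and chemokines, 17 had enough counts to be tested, and 13 of these were higher and 1, Cxcl16 (chosen after its value had been seen), lower. A low gene that passed the count filter only through the I/R libraries had to differ, so that this count is no share of the list. Il6 had no count in any PT-KO library and was at least 55.6-fold higher. Cxcl1, a neutrophil attractant, was at 1.86, 0.658 and 1.81 in PT-KO and 39.5, 66.1 and 80 CPM in PT-KO+I/R (log2 fold change 5.45, SE 0.35, adjusted p = 7.47e-07). Ccl2, a monocyte attractant, was at 0.12, 0.101 and 0.175 in PT-KO and 1.12, 1.63 and 2.13 CPM in PT-KO+I/R (log2 fold change 3.58, SE 0.47, adjusted p = 9.07e-05). Il1b was at 0.779, 0.86 and 0.757 in PT-KO and 1.2, 4.02 and 3.11 CPM in PT-KO+I/R (log2 fold change 1.82, SE 0.43, adjusted p = 0.00381). For these 3 genes every I/R library lay above every sham library. Cxcl10, an interferon-induced chemokine, was at 1.92, 2.07 and 3.73 in PT-KO and 2.41, 8.26 and 5.97 CPM in PT-KO+I/R, with groups that overlapped (log2 fold change 1.14, SE 0.42, adjusted p = 0.0345), and was not called without PT-KO 1 (log2 0.96), PT-KO 2 (log2 1.0), PT-KO+I/R 3 (log2 0.73) or PT-KO+I/R 4 (log2 1.10). In the IL-6 receptor and STAT3 list, 16 of 18 tested genes were higher and 2 lower, with a median of 1.93. Over its members with at least 10 counts in every library the median was 1.45. Whether IL-6 caused these rises was not tested. Socs3, the feedback inhibitor, was at 0.779, 1.01 and 0.99 in PT-KO and 40.5, 74.3 and 78.6 CPM in PT-KO+I/R (log2 fold change 6.11, SE 0.31, adjusted p = 1.61e-07). Stat3 was at 66.7, 69.9 and 60.6 in PT-KO and 349, 368 and 368 CPM in PT-KO+I/R (log2 fold change 2.46, SE 0.09, adjusted p = 4.42e-08), and Osmr rose by 3.30 on the log2 scale.

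Interferon-stimulated genes moved the other way, with 18 of 24 lower and 0 higher and a median of -1.23. Irf7 was at 11.6, 7.03 and 9.32 in PT-KO and 4.9, 4.11 and 4.2 CPM in PT-KO+I/R (log2 fold change -1.09, SE 0.21, adjusted p = 0.00127). It was not called in the edgeR fit to all 12 libraries (log2 -1.08, adjusted p = 0.0539). Isg15 was at 4.08, 2.02 and 2.56 in PT-KO and 1.69, 1.26 and 1.65 CPM in PT-KO+I/R (log2 fold change -0.92, SE 0.33, adjusted p = 0.0297), and was not called without PT-KO 1 (log2 -0.60), PT-KO+I/R 3 (log2 -0.78) or PT-KO+I/R 4 (log2 -0.98). Of 18 complement genes 3 were higher (16.7%) and 6 lower (33.3%, near the share over all genes). C3 was at 7.91, 6.27 and 7.34 in PT-KO and 33.3, 62.5 and 19.1 CPM in PT-KO+I/R (log2 fold change 2.43, SE 0.37, adjusted p = 0.000229). In the complement list 5 genes were called without PT-KO 4 and 5 without PT-KO+I/R 3.

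Markers of immune cells moved in opposite directions. All 9 neutrophil markers with enough counts, of 16, were higher, and the summed level of the list was 1.4 to 4.08 CPM in PT-KO and 64.5 to 103 CPM in PT-KO+I/R. Here too, low genes could pass the filter only through the I/R libraries. S100a8 was at 0.12, 0.354 and 0.0582 in PT-KO and 13, 14 and 16.4 CPM in PT-KO+I/R. S100a9 was at 1.2, 0.556 and 0.349 in PT-KO and 20.3, 31 and 35.3 CPM in PT-KO+I/R. The neutrophil surface marker Ly6g had no count in PT-KO and 3 in each PT-KO+I/R library, and Elane had none in any of the 6. All 8 tested MHC class II genes, of 9, were lower, and their summed level was 161 to 229 CPM in PT-KO and 38.9 to 54.9 CPM in PT-KO+I/R. Ciita, the master activator of these genes, was at 3.96, 2.38 and 5.47 in PT-KO and 0, 0.335 and 0.305 CPM in PT-KO+I/R (log2 fold change -3.99, SE 0.56, adjusted p = 0.000151). Low genes such as Ciita passed the count filter only through the sham libraries and had to differ. H2-Aa was at 37.8, 40.2 and 49.7 in PT-KO and 12.5, 8.42 and 7.37 CPM in PT-KO+I/R (log2 fold change -2.19, SE 0.19, adjusted p = 5.44e-06).

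Of 18 macrophage and monocyte markers tested, 9 were lower and 4 higher, and the summed level was 115 to 128 CPM in PT-KO and 171 to 266 CPM in PT-KO+I/R. Adgre1, which encodes F4/80, was at 3.3, 3.04 and 3.32 in PT-KO and 0.482, 0.419 and 0.183 CPM in PT-KO+I/R (log2 fold change -3.14, SE 0.36, adjusted p = 3.81e-05). The 4 higher genes were Cd14, Itgam, Cd68 and Fcgr3, chosen after their values had been seen, of which Itgam is also carried by neutrophils. Lymphocyte markers were low throughout. The 3 of 19 with enough counts, Cd8a, Ighm and Igkc (chosen after their values had been seen), were lower, of which Cd8a and Ighm passed the filter through the sham libraries and had to differ. With at least 10 counts in every library 1 was called, against 10 without the count filter and 8 in the fit to all 12 libraries. The summed level of the list was 14.9 to 18.8 CPM in PT-KO and 2.32 to 2.73 CPM in PT-KO+I/R. The summed erythroid level was 93.8 to 135 CPM in PT-KO and 41.7 to 49 CPM in PT-KO+I/R, with 2 of 7 genes called lower, one of them Slc4a1, and 5 called without PT-KO 1. Without Slc4a1 the sum was 49.3 to 101 CPM in PT-KO and 41.4 to 48.8 CPM in PT-KO+I/R. The part of these cell types in the results above was not tested.

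**Figure D4:**
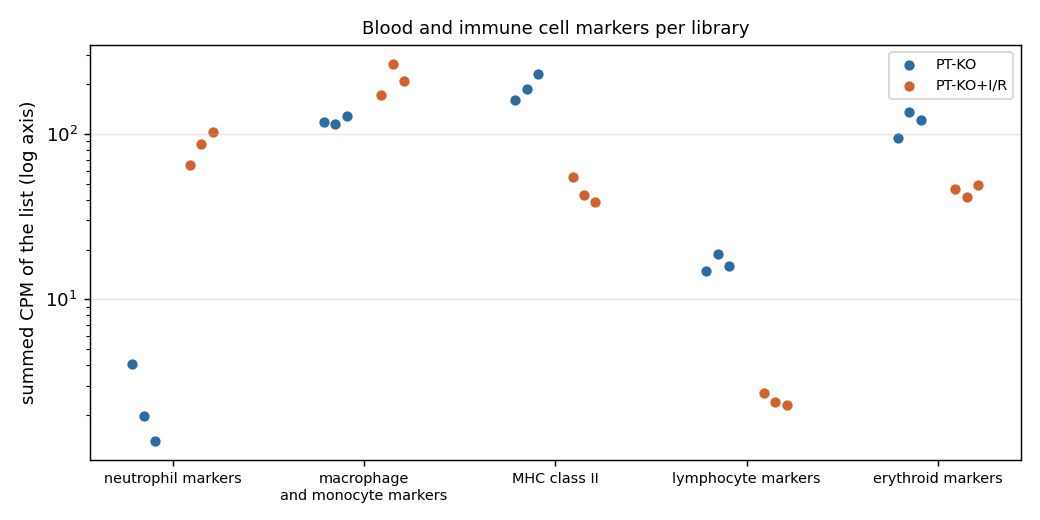
Summed CPM of 5 lists of blood and immune cell markers on a log axis, each point a library, PT-KO in blue and PT-KO+I/R in orange. The neutrophil sum is higher and the MHC class II, lymphocyte and erythroid sums are lower in all 3 I/R libraries.

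Matrix genes were more often higher than lower. Of 24 matrix and fibroblast genes 13 were higher (54.2%) and 1 lower (4.17%), with a median of 0.79. Lox, which crosslinks collagen, was at 3.42, 1.52 and 2.27 in PT-KO and 35.1, 26.4 and 33.6 CPM in PT-KO+I/R (log2 fold change 3.73, SE 0.24, adjusted p = 7.94e-07). Col4a1, a collagen of basement membranes, was at 288, 168 and 143 in PT-KO and 881, 759 and 789 CPM in PT-KO+I/R (log2 fold change 2.02, SE 0.23, adjusted p = 3.07e-05). The lower gene was the metalloproteinase Mmp2, at 5.63, 3.44 and 1.98 in PT-KO and 1.69, 1.22 and 1.83 CPM in PT-KO+I/R (log2 fold change -1.24, SE 0.38, adjusted p = 0.0164). These 3 genes were chosen after their values had been seen. Col1a1 was at 20.1, 8.04 and 7.11 in PT-KO and 16.2, 10.5 and 5.85 CPM in PT-KO+I/R (log2 fold change -0.13, 95% interval -1.08 to 0.83, adjusted p = 0.808). Fn1 was at 40.1, 23.4 and 19 in PT-KO and 22.1, 25.1 and 18.6 CPM in PT-KO+I/R (log2 fold change -0.32, 95% interval -0.87 to 0.22, adjusted p = 0.267). PT-KO 1 was the highest library for both Col1a1 and Fn1.

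Genes of lipid synthesis were more often lower. Cholesterol synthesis genes were lower in 16 and higher in 6 of 24, with Sqle, squalene epoxidase, at 45.7, 53.3 and 56.6 in PT-KO and 32.1, 36 and 30.3 CPM in PT-KO+I/R (log2 fold change -0.66, SE 0.11, adjusted p = 0.00042). Fatty acid synthesis genes were lower in 13 and higher in 6 of 22, with Fasn at 74.1, 80.3 and 77.8 in PT-KO and 33.6, 34.9 and 33.9 CPM in PT-KO+I/R (log2 fold change -1.18, SE 0.08, adjusted p = 9.47e-07) and Scd1 at log2 -2.09. Clock genes were 9 higher and 8 lower of 18. Arntl, which encodes BMAL1, was at 0.659, 1.32 and 1.28 in PT-KO and 23.5, 13.2 and 17.6 CPM in PT-KO+I/R (log2 fold change 4.03, SE 0.30, adjusted p = 1.77e-06). Dbp, a clock output, was at 131, 121 and 105 in PT-KO and 28.7, 35.8 and 27.1 CPM in PT-KO+I/R (log2 fold change -1.96, SE 0.13, adjusted p = 7.31e-07). The time of day at which kidneys were taken is not given in the sources used here.

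The design also asks whether I/R moved PT-KO kidneys differently from Ctrl kidneys, which an interaction term tested in all 12 libraries. Of 16168 genes, 4953 (30.6%) were called, 2305 (14.3%) with a more positive and 2648 (16.4%) with a more negative response in PT-KO. With total counts in place of TMM the calls were 1591 more positive and 2997 more negative, and without the count filter 1800 and 2659. Xist, expressed in females, had 22402 and 19755 counts in Ctrl 1 and 2 and at most 11 in the other libraries. With sex as a covariate 3233 genes (20.0%) were called, 8.89% with a more positive response. Of 25 genes listed for this test, 15 were called. They were chosen with earlier results of these data known, so that this count is no share to set against 30.6%. Cdkn1a rose by 6.25 on the log2 scale in PT-KO and by 2.30 in Ctrl, and Plin2 by 5.88 and 1.5. Mki67, with log2 fold changes of -2.16 in PT-KO and 1.19 in Ctrl, and Top2a, with -1.86 and 2.17, went in opposite directions. Gfer and Gpx4 were not called. The difference in log2 response, PT-KO minus Ctrl, was 0.19 (SE 0.25, adjusted p = 0.593, 0.65 in PT-KO and 0.46 in Ctrl) for Gfer and -0.33 (SE 0.20, adjusted p = 0.226, -0.14 in PT-KO and 0.19 in Ctrl) for Gpx4.

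**Figure D5:**
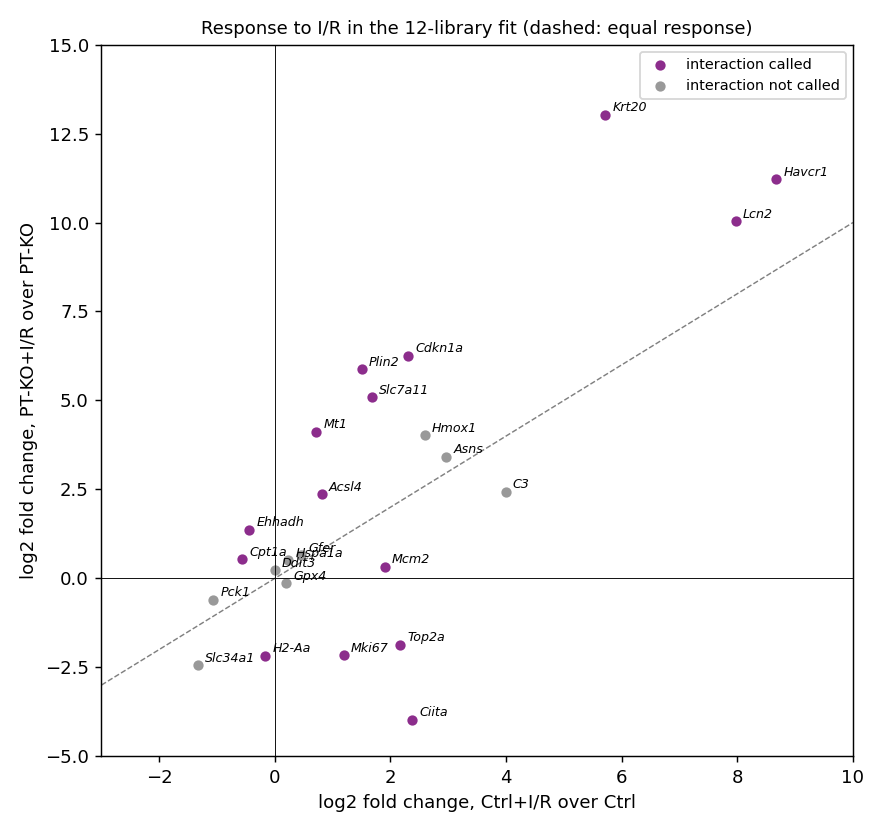
Log2 fold change after I/R in PT-KO (vertical) against that in Ctrl (horizontal) for genes chosen with earlier results known, in the fit to all 12 libraries. Genes whose responses differed are in purple and others in grey. On the dashed line both responses are equal. Krt20, Cdkn1a, Plin2 and Mt1 lie above it, and Ciita, Top2a and Mki67 below it.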

How the data were processed

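Per the labels, RNA from kidney cortex was sequenced on an Illumina platform, and the submitters' processing notes name HISAT2 2.0.4 and mm10. The labels name both a column kit and Trizol for RNA extraction without saying which library had which, so that any part of it in the results was not tested. The count program, annotation and strand setting are not given in the sources used here. The authors deposited 1 table of raw counts for 55487 genes, of which 55141 have a symbol in GENCODE M21. No sample column was left unused. One control column bears the number 3, while the titles of that group have 1, 2 and 4. It took its group from its name alone and is called unnumbered. The labels do not say beyond the titles that libraries are separate mice, and p-values measure the spread between these libraries.

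After filterByExpr and TMM scaling, the quasi-likelihood test of edgeR 4.0.16 was run in R 4.3.3, with Benjamini-Hochberg adjustment. The genes named were the 10 largest rises and falls among called protein-coding genes averaging 100 counts or more, the 6 largest gains and losses in mean CPM, and genes marked in 39 lists, of which some are not reported here. Members and lists were chosen with earlier results of these data known. In simulated counts for PT-KO+I/R against PT-KO over 14909 genes, edgeR found 65 of 92 changes of log2 1 and 101 of 108 of log2 2, with 16 false calls. Far fewer genes changed in the simulation than were called in the data, so that these rates may not carry over. Alternatives were DESeq2 1.42.0, total counts, other filters, 1 fit to 12 libraries, a replicate block and leaving out each library.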

Additional observations from a re-analysis of the deposited data

Results flagged for a closer look

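In 15 of the 25 genes listed for the interaction, the response to I/R differed between PT-KO and Ctrl by edgeR in all 12 libraries. The 25 were chosen with earlier results of these data known. Each is given as the difference in log2 fold change, PT-KO minus Ctrl, with both responses. The rises of Krt20 differed by 7.32 (SE 1.27, adjusted p = 0.00153, 13.03 in PT-KO and 5.71 in Ctrl), of Plin2 by 4.38 (SE 0.49, adjusted p = 0.000123, 5.88 in PT-KO and 1.5 in Ctrl), of Cdkn1a by 3.95 (SE 0.52, adjusted p = 0.000298, 6.25 in PT-KO and 2.30 in Ctrl) and of Mt1 by 3.39 (SE 0.30, adjusted p = 4.46e-05, 4.11 in PT-KO and 0.72 in Ctrl). With 1 library left out, the difference for Krt20 ranged from 6.78 to 9.14. For Acsl4 the difference was 1.56 (SE 0.24, adjusted p = 0.000839, 2.36 in PT-KO and 0.81 in Ctrl), for Ehhadh 1.81 (SE 0.42, adjusted p = 0.00734, 1.36 in PT-KO and -0.44 in Ctrl) and for Cpt1a 1.08 (SE 0.18, adjusted p = 0.00117, 0.53 in PT-KO and -0.56 in Ctrl). Responses were more negative in PT-KO for Mki67, -3.35 (SE 0.39, adjusted p = 0.000159, -2.16 in PT-KO and 1.19 in Ctrl), Top2a, -4.03 (SE 0.47, adjusted p = 0.000149, -1.86 in PT-KO and 2.17 in Ctrl), Mcm2, -1.58 (SE 0.22, adjusted p = 0.000406, 0.32 in PT-KO and 1.90 in Ctrl), Ciita, -6.36 (SE 0.91, adjusted p = 0.000508, -3.98 in PT-KO and 2.38 in Ctrl), and H2-Aa, -2.01 (SE 0.50, adjusted p = 0.0105, -2.18 in PT-KO and -0.17 in Ctrl). These 12 were also called with sex as a covariate, a fit in which 1 male library stands for the sham arm of Ctrl.

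Havcr1 differed by 2.55 (SE 0.84, adjusted p = 0.0368, 11.22 in PT-KO and 8.67 in Ctrl) and Lcn2 by 2.08 (SE 0.65, adjusted p = 0.0299, 10.04 in PT-KO and 7.97 in Ctrl), and Slc7a11 by 3.41 (SE 1.0, adjusted p = 0.0231, 5.09 in PT-KO and 1.68 in Ctrl). With sex as a covariate these became 1.82, adjusted p = 0.294, for Havcr1, 1.63, adjusted p = 0.276, for Lcn2, and 3.86, adjusted p = 0.0569, for Slc7a11. Havcr1 was not called without Ctrl 2 (log2 1.96), Ctrl+I/R 1 (log2 2.36), PT-KO 1 (log2 2.78), PT-KO 2 (log2 2.45), PT-KO 4 (log2 2.45), PT-KO+I/R 3 (log2 2.36) or PT-KO+I/R 4 (log2 2.53). Lcn2 was not called without Ctrl 2 (log2 1.61), Ctrl+I/R 1 (log2 1.96), PT-KO 2 (log2 1.74), PT-KO 4 (log2 2.14) or PT-KO+I/R 4 (log2 1.95). Slc7a11 was not called without Ctrl 2 (log2 3.35), the unnumbered Ctrl library (log2 3.12), PT-KO 1 (log2 3.21) or PT-KO 2 (log2 3.30). Of the genes not called, C3 differed by -1.56 (SE 0.58, adjusted p = 0.0586, 2.43 in PT-KO and 3.99 in Ctrl) and was called with sex as a covariate (-2.41, adjusted p = 0.0306) and without Ctrl 2 (log2 -1.87), Ctrl+I/R 4 (log2 -1.79) or PT-KO+I/R 3 (log2 -2.12). Hmox1, at 1.43 (SE 0.56, adjusted p = 0.07, 4.02 in PT-KO and 2.59 in Ctrl), was called without Ctrl+I/R 2 (log2 1.76), and Slc34a1, at -1.11 (SE 0.48, adjusted p = 0.0996, -2.44 in PT-KO and -1.33 in Ctrl), without Ctrl+I/R 2 (log2 -1.5). Both sexes occur only in Ctrl, so that sex and single Ctrl libraries cannot be told apart there.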

How the results depend on the processing

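The count of 9929 genes ranged from 8755 to 10699 under total counts, DESeq2, other filters and the 12-library fit, and from 9111 to 10262 with 1 library left out, with 0 of the shared calls in the opposite direction. A log2 fold change beyond 1 left 4633 genes (1980 higher, 2653 lower), and with an unadjusted p under 0.01 in place of the adjusted one 4417 (1874 higher, 2543 lower). Same-numbered libraries did not deviate together (correlations of 0.04 and 0.07 for numbers 2 and 4 of PT-KO, and from -0.238 to 0.264 over all 12 same-numbered pairs), so the replicate block is given only here: it called 8437 genes, and for the interaction 3215 (1396 with a more positive response). Sex as a covariate left 3233 interaction calls (1437 more positive). Under the block 7 mitosis genes (median -0.14) and 4 complement genes were called. Calls lost there, with the log2 fold change and the adjusted p under the block, included Vcam1 (0.47, 0.0828), Cox4i1 (-0.26, 0.0915) and Mcm2 (0.33, 0.118), whose fold changes were close to those without it, and Gfer (0.43, 0.0519), Il1b (1.30, 0.0705), Pck1 (-0.47, 0.0761), Cxcl10 (0.47, 0.234), Gclm (0.19, 0.243) and Isg15 (-0.46, 0.359), whose fold changes were smaller. The calls of the interactions were lost for H2-Aa (-1.79, 0.0533), Lcn2 (2.31, 0.0755), Havcr1 (2.64, 0.0765) and Slc7a11 (2.40, 0.159), while Cdk1 (1.03, 0.0446) and the C3 interaction (-1.96, 0.00768) were called. With at least 10 counts in every library, genes near 0 in PT-KO drop out, and the medians of the PPARA, cytokine and immediate early lists were 0.50, 0.94 and 2.17. The last was 2.43 under the block and 2.59 without PT-KO+I/R 3.

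Signs turned for genes that were not called. Ccnb1 was at log2 0.84 under the block and from -0.67 to 0.42 with libraries left out, above 0 without PT-KO 1 or PT-KO+I/R 3. Col1a1 was at 0.41 under the block and from -0.49 to 0.50 with libraries left out, above 0 without PT-KO+I/R 4 or PT-KO 1. Fn1 ranged from -0.53 to 0.04 with libraries left out, above 0 without PT-KO 1, and Hspa1b from -0.08 to 0.36, below 0 without PT-KO 2. Ppara ranged from -0.07 (without PT-KO+I/R 4) to 0.18. Kdr was at 0.03 with total counts and from -0.10 to 0.05 with libraries left out, at 0 or above without PT-KO 2, PT-KO 4 or PT-KO+I/R 3. The change of mt-Co1 was 0.04 with total counts, 0.01 without the filter and in the 12-library fit, 0.03 under the block and -0.09 to 0.06 with libraries left out. In the interaction, Asns was at -0.16 with sex as a covariate, Hspa1a from -0.09 (without PT-KO+I/R 2) to 0.45 and Gfer from -0.00 (without PT-KO 1) to 0.36. In the 12-library fit Kap, Irf7, Isg15, Vcam1, Cox4i1, Mcm2, Pck1, mt-Nd1, Ddx3y, Kdm5d and Uty were not called. Pck1 was not called by DESeq2 (adjusted p = 0.116) or with total counts (0.0679). Mcm2 was not called by DESeq2 (0.0603) or without the filter (0.0612), and Cox4i1 not without the filter (0.0612). Tfrc was called by DESeq2 (0.0462), with total counts (0.0216) and without the filter (0.0252). The interactions of C3 and Slc34a1 were called by DESeq2 (0.0474 and 0.0488) and without the filter (0.0133 and 0.0396), as was that of Hmox1 without the filter (0.0237). The cause of these differences was not tested.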

Other observations

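Kinds of transcript differed in direction. Of 577 processed pseudogenes tested in PT-KO+I/R against PT-KO, 230 were called higher and 55 lower, while of 301 lincRNAs 51 were higher and 145 lower, and of 299 antisense transcripts 53 were higher and 102 lower. Of 13340 protein-coding genes 4506 were higher and 4460 lower. These splits depend on the scaling: over all genes, 4980 were higher and 4949 lower with TMM, and 5231 and 4638 with total counts. Reads of pseudogenes cannot be told apart from those of close parent genes such as Fth1, and without strand, antisense reads cannot be told apart from those of the genes they overlap.

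Y-linked transcripts did not move as 1 group in these male libraries. Ddx3y was called higher by 0.40 on the log2 scale, Kdm5d (-0.87) and Uty (-0.62) were called lower, and Eif2s3y (log2 fold change 0.56, 95% interval 0.03 to 1.08, adjusted p = 0.0593) was not called. The calls of Ddx3y, Kdm5d and Uty were lost in the edgeR fit to all 12 libraries. Eif2s3y had 487, 1120.0 and 1116 in PT-KO and 1048, 1644 and 1139 counts in PT-KO+I/R.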
